A study of Mus musculus with 8 samples.

Results

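Classical MHC class II genes were followed through the single-cell transcriptomes of 8 mouse lung grafts, with 1 graft per mouse taken 1 month after orthotopic left lung transplantation (LTx). The 10 members were H2-Ab1, H2-Aa and H2-Eb1, which encode class II chains, Cd74 (invariant chain), H2-DMa, H2-DMb1 and H2-DMb2 (H2-DM chains), H2-Oa and H2-Ob (H2-O chains) and Ciita. They were listed by name, and all 10 were present among the 17921 genes of the table. In B6→B6, C57BL/6 lungs were placed in C57BL/6 recipients as non-rejected controls (5 mice). In HLA→B6, the donor lungs came from a C57BL/6 strain with a human HLA-A2 transgene, Tg(HLA-A2.1)1Enge/J, and the C57BL/6 recipients develop bronchiolitis obliterans syndrome (BOS, 3 mice). All mice were male and none received immunosuppression. In HLA→B6 grafts the structural cells belong to the transgenic donor and infiltrating cells to the recipient, and donor leukocytes that persist in the graft could not be told apart from recipient cells by the labels. The donor genotype and the alloresponse to it cannot be told apart in this design.

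MHC class II molecules present peptides from endosomes to CD4+ T cells. The α and β chains of the A molecule (H2-Aa with H2-Ab1) assemble with CD74, which blocks the groove and steers the complex to endosomes, where cathepsins degrade it. H2-Eb1 encodes the E β chain. Its α partner is not among the members, and only the H2-Eb1 transcript was counted here. H2-DM then exchanges the remaining CD74 peptide for antigenic peptides and H2-O restrains H2-DM, mainly in B cells. CIITA is the master coactivator: it binds no DNA itself, and acts on class II promoters through proteins seated on the X box and on the Y box, a CCAAT element. B cells, dendritic cells and many macrophages carry class II constitutively, whereas many endothelial and epithelial cells can gain it when interferon-γ induces CIITA.

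In GRCm38, 8 members lie within the class II region of chromosome 17 between position 34092340, the start of H2-Oa, and position 34316674, the end of H2-Eb1. Ciita lies on chromosome 16 from 10480059 to 10528418. The members share their promoter architecture, so promoter windows of RefSeq (build GRCm38.p6, 250 bases before to 50 after the gene start) were searched on both strands for TGATTGG, a Y box written with its CCAAT core on the reverse strand, and for AGNAAC, part of an X box. Of the 10 members, Cd74 was left out of this search, and no window was found for H2-Ab1 and Ciita. Of the 7 members with a window, 6 held TGATTGG, against 7.82% of all 32851 windows. The promoter of Cd74 is therefore not part of these counts. In 4 members AGNAAC stood 20 to 40 bases before TGATTGG, a spacing found in 0.204% of all windows, while AGNAAC on its own occurred in 48.1%. The stretches around these letters are shown because CIITA acts on the members through such elements. They are written 5′ to 3′ on the gene's strand, with the capitals marking AGNAAC and TGATTGG.
H2-Oa (chr17:34092294-34092345, plus strand): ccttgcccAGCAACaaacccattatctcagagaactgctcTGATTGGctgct
H2-DMb1 (chr17:34153088-34153139, plus strand): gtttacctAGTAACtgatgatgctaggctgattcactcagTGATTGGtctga
H2-DMb2 (chr17:34145117-34145168, plus strand): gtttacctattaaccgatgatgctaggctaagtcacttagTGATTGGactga
H2-Ob (chr17:34238806-34238857, plus strand): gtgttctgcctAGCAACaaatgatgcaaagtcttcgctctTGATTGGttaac
H2-Eb1 (chr17:34305766-34305817, plus strand): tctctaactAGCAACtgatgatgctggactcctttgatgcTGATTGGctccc
H2-Aa (chr17:34287862-34287913, minus strand): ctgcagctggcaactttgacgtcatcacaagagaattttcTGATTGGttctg
In H2-Oa, TGATTGG began 45 bases before the annotated start, and in H2-DMb2 it began 92 bases before it. H2-DMb1 and H2-DMb2 are near-identical neighbours, so the split of reads between them is uncertain. H2-DMa overlaps Brd2 on the opposite strand, Ciita overlaps Dexi, and H2-Oa and H2-Eb1 each overlap an annotated antisense gene. A match is a description of letters, and nothing about binding was measured here.

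The table held 20778 cells of 11 cell types named by the authors, in which the structural cells were divided into 11 clusters and the B and plasma cells into 4. Mice contributed between 868 and 6544 cells each, and the median depth per mouse was between 1356 and 1948 UMIs per cell. Counts were summed per mouse within a type or cluster of at least 10 cells. Levels are UMIs of a gene per 1000000 UMIs of the type in that mouse (CPM), and as each UMI tags 1 transcript end they are not scaled by transcript length. Libraries shared cell barcodes: 459 barcodes occurred in more than 1 mouse. Most joined B6→B6 1, 2 and 3 with HLA→B6 2, called the linked libraries here (160 barcodes were shared by B6→B6 2 and HLA→B6 2). Comparisons were repeated in the other 4 libraries alone where each group kept at least 2 mice, and where that left too few mice (clusters 3, 5 and 7, leukocytes and B cell cluster 1) with the linked libraries as a block. Types and clusters were defined by the authors from the same counts, so differences between types are a description with no test.

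By H2-Ab1 averaged over all mice, myeloid cells stood highest, followed by B cells. Cd74 was higher in B cells than in myeloid cells in each HLA→B6 mouse and in B6→B6 4, and lower in the other controls. H2-Ab1 stood at 23686, 16329, 13663, 4365 and 15934 CPM in the myeloid cells of B6→B6 1 to 5 and at 9957, 8609 and 6204 CPM in those of HLA→B6 1 to 3. B cells were far more even, with H2-Ab1 at 5488, 5837, 6417, 5130 and 5976 CPM in B6→B6 and at 5998, 5996 and 6232 CPM in HLA→B6. Alveolar macrophages came next, with a range over mice that included that of B cells. They stood above B cells in HLA→B6 1 and 2, and above myeloid cells in HLA→B6 2. Monocytes held between 1852 and 4110 CPM of H2-Ab1 in B6→B6 and between 591 and 4422 CPM in HLA→B6. Plasma cells, counted in HLA→B6 1 and 2 only, held 1494 and 1229 CPM of H2-Ab1 but 10266 and 6811 CPM of Cd74. Type 2 pneumocytes, epithelial cells that make surfactant, reached 10 cells in HLA→B6 1 alone, with 2083 CPM of H2-Ab1 and 11107 CPM of Cd74. In that order, myeloid cells lay above the B cell range in 6 of 8 mice, with B6→B6 4 below it and HLA→B6 3 inside it, and monocytes lay below it in each mouse.

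T cells and NK cells gave the background, as mouse T and NK cells do not make class II. H2-Ab1 in T cells was at 2.85, 5.24, 0, 36.1 and 0 CPM in B6→B6 1 to 5 and at 21.7, 13.2 and 21.2 CPM in HLA→B6 1 to 3. The HLA→B6 mice stood above 4 of the 5 controls, and B6→B6 4 gave 73 of the 78 control UMIs. Over all T cells H2-Aa counted 22 UMIs in B6→B6 and 58 in HLA→B6, a ratio of 2.48 with a 95% counting interval of 1.49 to 4.25, and the ratio was 1.69 (1.06 to 2.74) in H2-Eb1. In NK cells H2-Ab1 was listed at 0 in 4 of 5 B6→B6 mice and at 35.0 CPM in the fifth, B6→B6 4, and at 80.5, 78.0 and 0 CPM in HLA→B6. Cd74 in NK cells was 0 of 891274 UMIs in B6→B6 and 162 of 726157 UMIs in HLA→B6, at least 66.3-fold higher against a floor of 3 counts over the group, with 148 of the 162 in HLA→B6 1. No member passed the filter on low counts in NK cells, but without that filter 4 of 10 were called higher in HLA→B6 (edgeR), where 0.286% of all genes were, and without HLA→B6 3 there were 3 of 4. Such intervals cover counting error alone. H2-DMa in T cells counted 6, 14, 9, 54 and 10 UMIs in B6→B6 1 to 5 and 71, 113 and 13 in HLA→B6 1 to 3. As CPM, each HLA→B6 mouse stood above each control (two-sided exact permutation p = 0.0357). The groups were also apart in Ciita in T cells (exact p = 0.0179), with 0 or 1 UMI per control, and in H2-DMb1 in NK cells (exact p = 0.0357). The other members overlapped in both types. The lowest B6→B6 level of H2-Ab1 in structural cells was 114 CPM, in B6→B6 5, where 35 of 42 UMIs came from 4 cells of structural cluster 10, which holds B cell genes. Without cells holding a leukocyte UMI it was 21.0 CPM there, within the T cell range, and between 356 and 862 CPM in the other controls. The labels of both background types were borne by their own genes, with Cd3d found in 79.9% of T cells and Ncr1 in 73.8% of NK cells.

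**Figure D1:**
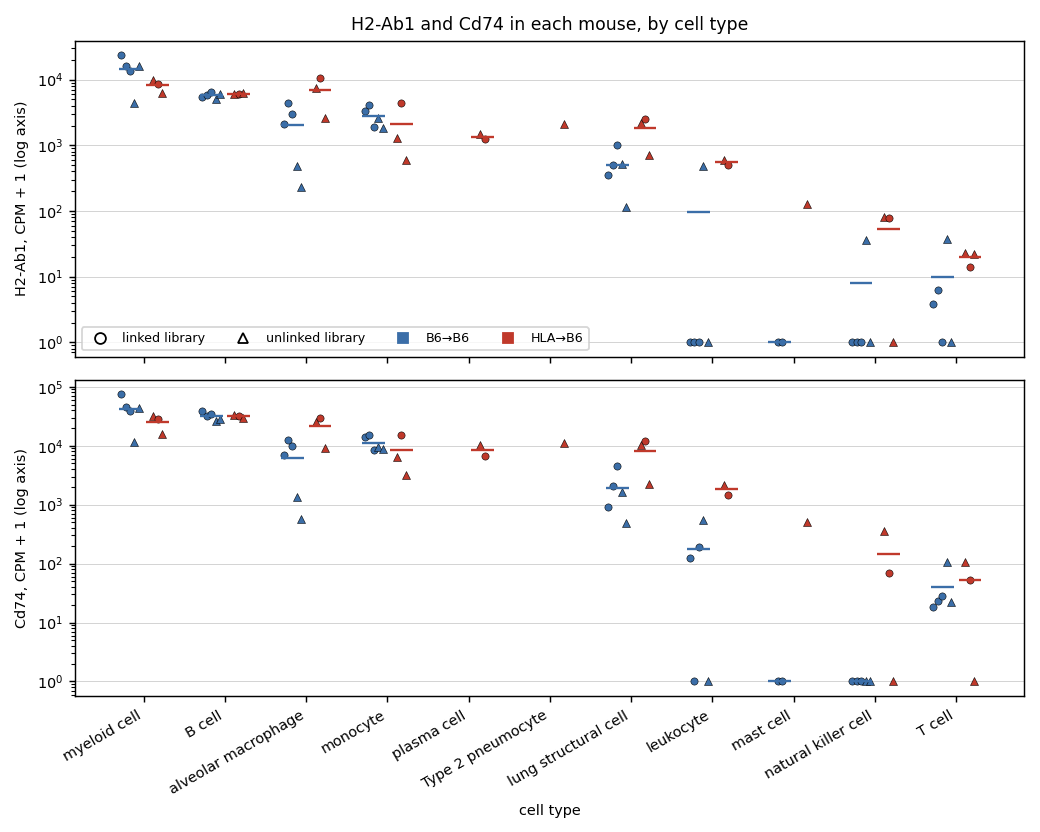
H2-Ab1 (upper panel) and Cd74 (lower panel) in each cell type, as CPM + 1 on a log axis, with 1 point per mouse of at least 10 cells (blue B6→B6, red HLA→B6, circles for the linked libraries, triangles for the others) and lines at the group means where a group has more than 1 mouse. Over both groups together, myeloid cells and B cells stand highest and mast, NK and T cells lowest. In HLA→B6 1 and 2 alveolar macrophages lie above B cells for H2-Ab1. Structural cells lie between these extremes with the HLA→B6 mean above that of B6→B6.

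The mixture of members differed by type. H2-DMb2 made up 89.5% ± 1.26 (SD, n = 8) of H2-DMb UMIs in B cells, with all mice between 88.1% and 91.5%. In alveolar macrophages it made up 4.25% ± 3.44, in monocytes 3.86% ± 2.35 and in lung structural cells 7.38% ± 6.58 (n = 7), while myeloid cells lay between at 33.7% ± 6.13. Much of the structural value came from the few cells of structural cluster 10, with 6 of 6 H2-DMb2 UMIs in B6→B6 2, 32 of 40 in B6→B6 3 and 11 of 13 in B6→B6 4. In B6→B6 5 it was 6 of 6, but that mouse lay below the minimum of 20 H2-DMb UMIs and did not enter the mean. Cluster 0 held 1.96% on average, between 0 and 6.78% (n = 5). B cells and macrophages thus stood apart in the H2-DM β gene counted, and the split of reads between these paralogs is uncertain. H2-O, the restraint on H2-DM, also stood apart. There were 43.0 ± 4.93 H2-O UMIs per 100 H2-DM UMIs in B cells, 16.4 ± 6.97 in myeloid cells, 1.98 ± 1.92 in monocytes and 1.38 ± 0.929 in alveolar macrophages. Cd74 exceeded H2-Ab1 in each type, by 5.44 ± 0.735 UMIs per H2-Ab1 UMI in B cells, 3.88 ± 0.796 in structural cells, 3.07 ± 0.376 in alveolar macrophages and 2.89 ± 0.285 in myeloid cells. The α chain H2-Aa was close to H2-Ab1 in B cells (0.975 ± 0.0317) and lower in the plasma cells of HLA→B6 1 and 2 (0.327 and 0.380). Ciita stood at 3.76 ± 0.595 UMIs per 100 H2-Ab1 UMIs in B cells, 4.46 ± 2.72 in structural cells and 0.848 ± 0.545 in alveolar macrophages.

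**Figure D2:**
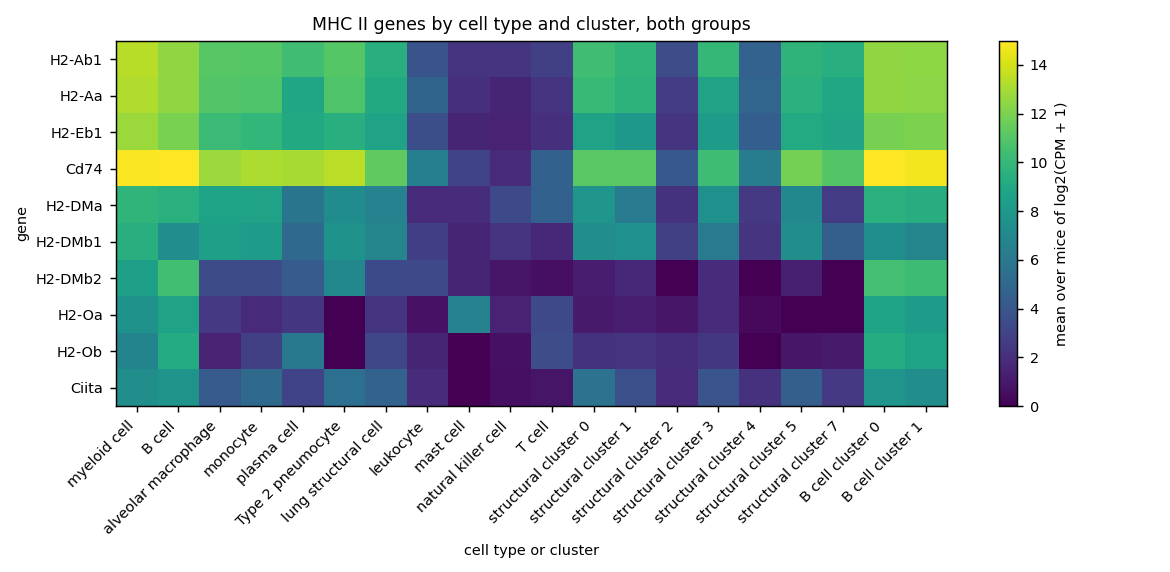
Level of each of the 10 genes (rows) in each type and cluster (columns), as log2(CPM + 1) averaged over the mice of both groups with at least 10 cells. H2-DMb2, H2-Oa and H2-Ob are high in B cells and myeloid cells and low in alveolar macrophages and structural cells, where H2-DMb1 and H2-DMa are present.

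The first comparison asked which cells of rejecting grafts differ in class II from those of controls. In lung structural cells, which pool endothelial, epithelial and mesenchymal cells with some other cells, 5 of 9 members tested rose in HLA→B6 and 0 fell, against 0.604% of all 8109 genes called. These were the 3 chain genes H2-Ab1, H2-Aa and H2-Eb1 and the peptide exchange genes H2-DMa and H2-DMb1. The median log2 change was 1.82 over the 9 members and −0.01 over all genes. H2-Oa did not pass the filter on low counts (edgeR's filterByExpr), and the call was edgeR's quasi-likelihood F test with an adjusted p under 0.05.

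H2-DMa, the α chain of H2-DM, was at 44.0, 69.3, 120, 68.4 and 24.5 CPM in the structural cells of B6→B6 1 to 5 and at 328, 353 and 132 CPM in HLA→B6 1 to 3. The groups did not overlap, with HLA→B6 3 just above B6→B6 3. It rose by 1.99 ± 0.24 (SE) on the log2 scale (edgeR, adjusted p = 0.00807), and a two-sided exact permutation test gave p = 0.0179, the smallest that 5 against 3 allows. H2-Ab1, the A β chain, was at 350, 508, 1028, 514 and 114 CPM in B6→B6 and at 2171, 2537 and 712 CPM in HLA→B6. Here the groups overlapped, as HLA→B6 3 lay below B6→B6 3. Its change was 1.83 ± 0.31 (edgeR, adjusted p = 0.0258). H2-Aa rose by 1.67 ± 0.29 and H2-Eb1 by 1.82 ± 0.34 (edgeR, adjusted p = 0.0282 and 0.0413). H2-DMb1 rose by 1.58 ± 0.31 (edgeR, adjusted p = 0.0457). In H2-Aa, H2-Eb1 and H2-DMb1 the groups overlapped as well. The exact permutation test gave p = 0.0714 for H2-Ab1, 0.0536 for H2-Aa, 0.0714 for H2-Eb1 and 0.125 for H2-DMb1.

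Cd74 was at 907, 2045, 4601, 1631 and 484 CPM in B6→B6 structural cells and at 10204, 11796 and 2253 CPM in HLA→B6, and Ciita was at 27.2, 15.4, 59.3, 20.5 and 0 CPM against 155, 156 and 13.0 CPM. In both genes HLA→B6 1 and 2 stood far above the controls while HLA→B6 3 lay among them. Neither passed the threshold: the change of Cd74 was 1.99 ± 0.43 (edgeR, adjusted p = 0.0703) and that of Ciita 1.91 ± 0.50 (adjusted p = 0.162). The B cell type members H2-DMb2 and H2-Ob gave −0.69 ± 0.71 and 0.17 ± 0.73. Under DESeq2 7 members were called in place of 5. The count was 1 without B6→B6 2, without B6→B6 4, without HLA→B6 1 or without HLA→B6 2, and 0 in the 4 libraries that are not linked, where 0 of all genes were called.

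**Figure D3:**
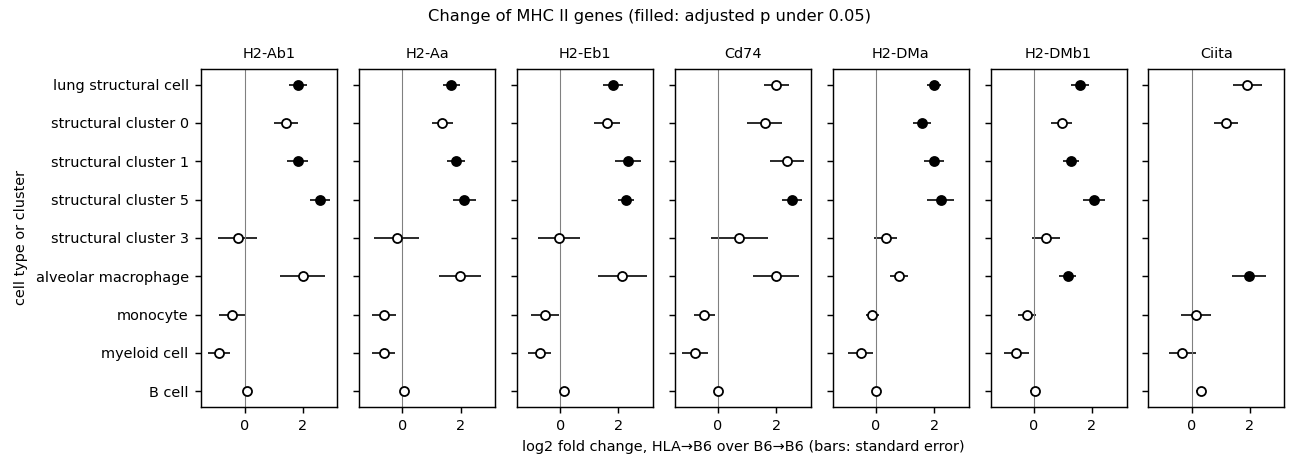
Change of 7 genes (panels) between HLA→B6 and B6→B6 in 9 types and clusters, as log2 fold change by edgeR with bars of 1 SE, filled where the adjusted p was under 0.05 and blank where a gene did not pass the filter on low counts. Structural cells, clusters 0, 1 and 5 and alveolar macrophages lie to the right of 0, B cells lie near 0 with short bars, and the open points of myeloid cells lie to the left.

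Lung structural cells are not 1 cell type, and the shares of their clusters differ between mice. Clusters 0, 1, 2 and 5 carried endothelial genes, with Cldn5, a tight junction protein of endothelium, found in 93.4%, 80.5%, 96.4% and 71.8% of their cells. The authors' table names clusters 0 and 5 as endothelial but clusters 1, 2 and 7 as epithelial, and there genes given here went against the name. The paper describes clusters 1 and 2 as expressing Scgb1a1 and Sftpc, and Scgb1a1 is not given here. Cdh1, the E-cadherin of epithelium, was found in 0.445% of cells of cluster 1 and in 0.378% of cells of cluster 2, and the surfactant gene Sftpc in 17.3% and 7.56% (4.97% in T cells). Cluster 7 held platelet genes (Pf4 in 97.8% of cells). These clusters are therefore called by number. The table names cluster 0 for its MHC II, so its place among the clusters is a description of how it was named. Clusters 4, 6 and 10 were named red cells, T cells and B cells by the authors and held their genes (Hbb-bs in 99.7%, Cd3d in 59.6% and Cd79a in 100% of cells), so they are structural in the broad label only. Without clusters 4, 6, 7 and 10, 4 of 7 members tested were called. Clusters were therefore compared 1 by 1, with fewer cells and fewer genes in each.

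Cluster 0 held the most class II among the endothelial clusters. H2-Ab1 was at 525, 1680, 1970, 1356 and 140 CPM in B6→B6 1 to 5 and at 2828, 3532 and 2936 CPM in HLA→B6 1 to 3. The groups did not overlap, although B6→B6 5 rests on 18 cells. Its change was 1.43 ± 0.41 (edgeR, adjusted p = 0.159). H2-DMa, at 78.6, 177, 263, 188 and 69.9 CPM against levels between 453 and 547 CPM, was the 1 member of 7 tested that was called, against 0.686% of all genes. The groups were apart and the change was 1.58 ± 0.32 (edgeR, adjusted p = 0.0177). All 7 members tested had positive estimates. Ciita stood at 5.80 ± 2.86 UMIs per 100 H2-Ab1 UMIs (n = 7), above the 3.76 of B cells in mean and overlapping it in range.

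In cluster 1, 5 of 6 members tested rose, against 1.02% of all genes called. H2-Ab1 was at 775, 806, 877, 757 and 97.3 CPM in B6→B6 and at 2341, 3017 and 1427 CPM in HLA→B6. Each HLA→B6 mouse was above each control, and B6→B6 5 stood well below the other controls on 17 cells. H2-Ab1 rose by 1.83 ± 0.36 (edgeR, adjusted p = 0.0144), H2-Aa by 1.84 ± 0.31 (0.00596), H2-Eb1 by 2.33 ± 0.44 (0.0122), H2-DMa by 2.01 ± 0.34 (0.00696) and H2-DMb1 by 1.28 ± 0.28 (0.0347). Cd74 gave 2.38 ± 0.59 (edgeR, adjusted p = 0.0704). The count was 3 without 5 of the mice in turn and 0 with a minimum of 20 cells, which leaves B6→B6 3 and 4 as controls.

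In cluster 5, 6 of 6 members tested rose, where 9.02% of all genes were called. H2-Ab1 was at 294, 543, 721 and 257 CPM in B6→B6 1 to 4 and at 2212, 3330 and 1669 CPM in HLA→B6 1 to 3, and B6→B6 5 with 6 cells was left out. All 3 HLA→B6 mice stood above all 4 controls. With the linked libraries as a block 6 of 6 were also called. The changes were 2.58 ± 0.34 in H2-Ab1, 2.54 ± 0.34 in Cd74 and 2.26 ± 0.28 in H2-Eb1 (edgeR, adjusted p = 0.000689 in each). H2-Aa rose by 2.13 ± 0.38, H2-DMb1 by 2.07 ± 0.38 and H2-DMa by 2.22 ± 0.46 (edgeR, adjusted p = 0.00592, 0.00720 and 0.0125).

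Cluster 2 was the endothelial cluster with the least class II in controls. Cd74 counted 2 of 853224 UMIs in B6→B6 and 446 of 210801 UMIs in HLA→B6, a ratio of 903 with a counting interval of 248 to 7476. By mouse it was 0, 0, 0, 6.08 and 0 CPM against 896, 2929 and 419 CPM, with no overlap. It was the 1 member that passed the filter on low counts and it was called (edgeR, adjusted p = 0.000124), with 0.243% of all genes called; it passed through the group where it is high. H2-Ab1, left out by the filter, was at 0, 0, 35.4, 0 and 62.5 CPM against 0, 1150 and 140 CPM. HLA→B6 1 held Cd74 there with no H2-Ab1 among 31239 UMIs of 14 cells.

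Other structural clusters gave no called member. In cluster 3, 0 of 6 members tested were called by edgeR, with 0.317% of all genes called and 0 members at an unadjusted p under 0.05, and H2-Ab1 was at 109, 1987 and 2264 CPM in B6→B6 1, 3 and 4 against 1682, 1260 and 1070 CPM. These control sums rested on few cells: the 2 highest cells held 201 of 225 H2-Ab1 UMIs in B6→B6 3 and 230 of 248 in B6→B6 4, against 25.6%, 35.1% and 36.8% of the UMIs in HLA→B6 1 to 3. Counted by cells of at least 500 UMIs, those with at least 1% of UMIs from the chain genes and Cd74 were at most 8.11% in each of B6→B6 1, 3 and 4 and 44.7%, 43.5% and 17.4% in HLA→B6, with no overlap and no test made. In cluster 4, with red cell genes, 0 of 4 members were called, where 0% of all genes were, and 0 had an unadjusted p under 0.05. In cluster 7, with platelet genes, 0 of 2 were called against 0.415%, and 0 had an unadjusted p under 0.05. DESeq2 also called 0 members in these clusters. The remaining structural clusters had too few mice with 10 cells for a fit.

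**Figure D4:**
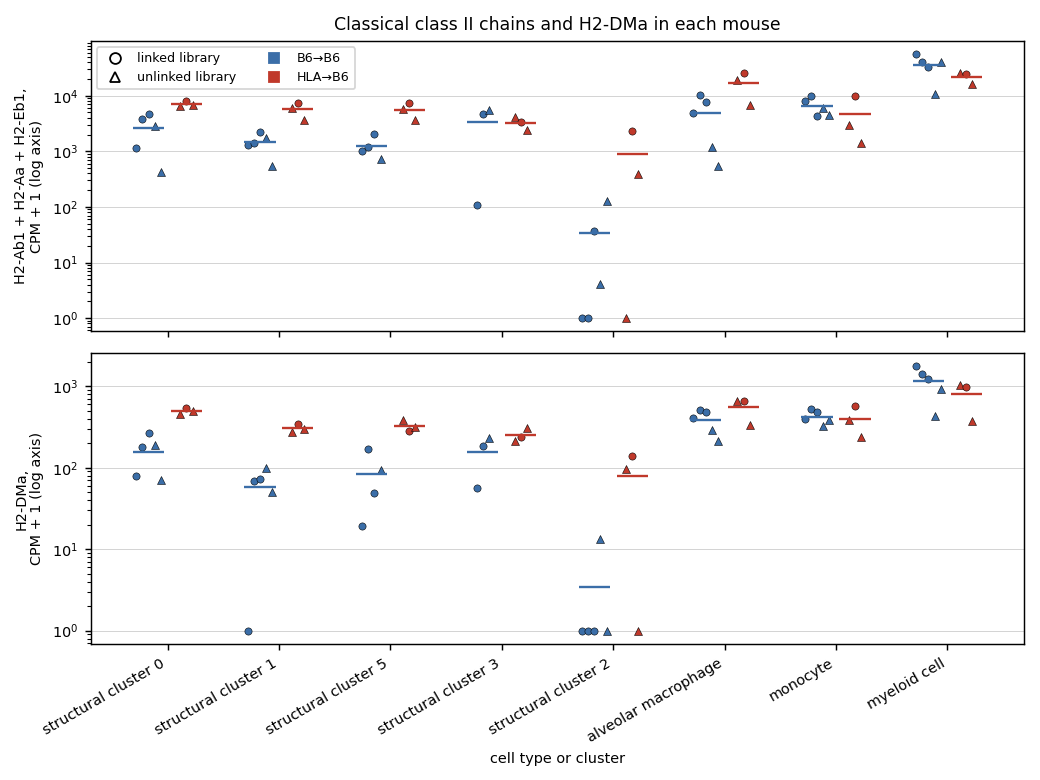
Summed H2-Ab1, H2-Aa and H2-Eb1 (upper panel) and H2-DMa (lower panel) in 5 structural clusters and in alveolar macrophages, monocytes and myeloid cells, as CPM + 1 on a log axis, with 1 point per mouse of at least 10 cells (blue B6→B6, red HLA→B6, circles for the linked libraries) and lines at the group means. The 3 HLA→B6 points lie above all B6→B6 points in clusters 0, 1 and 5 in both panels, and the groups overlap in the other columns.

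Genes of other cells moved with class II in these clusters. The summed level of 10 macrophage and monocyte markers in cluster 1 was 86.0 CPM on average in B6→B6, between 0 and 341, and 1392 CPM in HLA→B6, between 794 and 2524, and 2 of the 10 (Adgre1 and Mrc1) were at 0 in B6→B6. In clusters 0 and 5 the same sum went from 43.8 to 275 CPM and from 32.1 to 336 CPM. The sum of 9 dendritic cell markers in cluster 1 was 165 CPM in B6→B6 and 126 CPM in HLA→B6. The part of these cells in the class II result was not tested as such, but the fit was repeated without the 1020 structural cells, 18.5% of 5514, that held a UMI of 7 leukocyte genes. H2-DMa then changed by 2.33 in structural cells (edgeR, adjusted p = 0.00903) and H2-Ab1 by 2.22 (adjusted p = 0.0520), with 3 of 7 members called. In cluster 1, 3 members were then called, against 5 with all cells. H2-Ab1 gave 1.55 (edgeR, adjusted p = 0.0527), against 1.83 (0.0144) with all cells. H2-DMb1 gave 1.16 (adjusted p = 0.111), against 1.28 (0.0347). Cells holding only other leukocyte genes than these 7 were kept. Cluster make-up was held fixed by averaging clusters 0, 1 and 2 with equal weights for all mice. H2-DMa was then 71.7 ± 37.4 CPM in B6→B6 and 294 ± 44.5 CPM in HLA→B6 (exact permutation p = 0.0179), and H2-Ab1 605 ± 343 and 1930 ± 562 CPM (exact p = 0.0536).

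Alveolar macrophages varied widely between control mice. H2-Ab1 was at 2100, 4357, 2988, 479 and 231 CPM in B6→B6 1 to 5 and at 7384, 10512 and 2644 CPM in HLA→B6 1 to 3. HLA→B6 3 lay within the controls, and the controls fell into the linked libraries 1, 2 and 3 above and the others below. H2-DMb1 rose by 1.17 ± 0.30 and Ciita by 1.98 ± 0.58 (edgeR, adjusted p = 0.0296 and 0.0467), so 2 of 7 members tested were called, where 12.3% of all genes were. In both genes the groups overlapped (two-sided exact permutation p = 0.0714 and 0.179). H2-Ab1 changed by 1.99 ± 0.77 (edgeR, adjusted p = 0.110) and Cd74 by 2.00 ± 0.79 (adjusted p = 0.118), and all 7 members tested had an unadjusted p under 0.05.

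Within the linked libraries the mean of H2-Ab1 in alveolar macrophages was 3148 CPM in 3 B6→B6 mice and 10512 CPM in HLA→B6 2. Among the other libraries it was 355 CPM in 2 B6→B6 mice and 5014 CPM in 2 HLA→B6 mice. Each set thus went the same way at a different level. With the linked libraries as a block 7 of 7 members were called, where 21.6% of all genes were, and H2-Ab1 rose by 3.24 (edgeR, adjusted p = 0.00117). In the other 4 libraries alone 7 of 8 members were called, where 7.94% of all genes were. Without 793 of the cells that shared a barcode 6 of 7 were called, where 18.1% of all genes were, with H2-Ab1 at 2.42 (edgeR, adjusted p = 0.0334). The deepest cell of a shared barcode was kept where it held far more UMIs than the next. The count was 0 without B6→B6 1, 4 or 5 or without HLA→B6 1 or 2. The sum of 10 macrophage and monocyte markers was higher in HLA→B6 as well, 45857 against 25787 CPM, and its part in the result was not tested.

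Professional class II cells of the other kinds gave no called member. In B cells 0 of 10 were called, where 0.117% of all genes were, with 0 at an unadjusted p under 0.05 by edgeR. The estimates were between −0.03 and 0.32 and small beside those of structural cells: H2-Ab1 changed by 0.09 ± 0.12 and Cd74 by −0.01 ± 0.11. Ciita, at 185, 229, 270, 174 and 158 CPM against 243, 272 and 249 CPM, gave 0.32 ± 0.17. The larger B cell cluster 0 had H2-Ab1 at 0.00 ± 0.13, and B cell cluster 1, fitted on 2 against 2 mice, at 0.35 ± 0.22. In both clusters 0 of 10 members were called by edgeR, with 0% of all genes called and 0 members at an unadjusted p under 0.05; in cluster 1 the count was 4 without B6→B6 3, where the lone control is assumed to vary like the other group.

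Myeloid cells are a mixed label: Flt3, a dendritic cell gene, was found in 28.2% of them and Cd3d, a T cell gene, in 21.7%. All 10 members had a negative estimate and 0 were called, where 0% of all genes were. H2-Ab1 changed by −0.88 ± 0.39 and was the 1 member with an unadjusted p under 0.05 (edgeR, adjusted p = 0.995). B6→B6 4 lay far below the other controls, and 74.5% of its myeloid cells with at least 500 UMIs had no UMI of the chain genes and Cd74. In monocytes 0 of 7 members were called against 0.023% of all genes, 0 had an unadjusted p under 0.05, and H2-Ab1 gave −0.43 ± 0.44. Cells labelled leukocyte, with a median of 678.5 UMIs, were compared in 5 against 2 mice. H2-Ab1 was listed at 0 in 4 of 5 controls and at 476 CPM in B6→B6 4, against 587 and 509 CPM, and 0 of 4 members were called, where 0% of all genes were; 3 had an unadjusted p under 0.05 by edgeR. In T cells 0 of 5 members were called against 0.0698% of all genes, with H2-DMa the 1 member at an unadjusted p under 0.05 (0.92 ± 0.31), and in NK cells no member passed the filter and 0% of all genes were called. DESeq2 called 0 members in each of these types and in both B cell clusters.

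The difference between types was tested itself, as an interaction of type and group with the mouse as a block. Against monocytes, 3 of 8 members changed more in structural cells, where 0.107% of all genes were called: H2-DMa by 2.23 ± 0.31, H2-Ab1 by 2.82 ± 0.51 and Cd74 by 2.88 ± 0.51 (edgeR, adjusted p = 0.00555, 0.0436 and 0.0436). Against B cells H2-DMa differed by 2.06 ± 0.29 (edgeR, adjusted p = 0.0325), as 1 of 10 members where 0.012% of all genes were called, and H2-Ab1 by 1.85 ± 0.32 (adjusted p = 0.0971). Against alveolar macrophages 0 of 8 members passed (1 at an unadjusted p under 0.05), with 1.32% of all genes called, and the difference of H2-Ab1 was −0.43 ± 0.73. Against myeloid cells 0 of 10 passed (7 unadjusted), with 0.0372% called, although H2-Ab1 differed by 2.73 ± 0.54 (edgeR, adjusted p = 0.0945). Against T cells 0 of 10 passed (2 at an unadjusted p under 0.05), with 0% called. Against NK cells 0 of 7 passed (3 unadjusted), with 0.0166% called. Those 3, H2-Aa, H2-Eb1 and Cd74, changed less in structural cells, by −6.27 ± 1.65, −5.95 ± 1.58 and −7.12 ± 2.01. In the NK cells of B6→B6 each of these 3 counted 0 UMIs. In the 4 libraries that are not linked, 4 of 9 members changed less in structural cells than in alveolar macrophages, 5 of 8 changed more than in monocytes, 1 of 10 more than in myeloid cells and 0 of 10 differed from B cells (edgeR). There 1 of 6 changed less than in NK cells and 0 of 10 differed from T cells.

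Shares of cells gave the same comparison without the weight of the deepest cells. Each cell was thinned to 500 UMIs, and the percentage of cells expected to hold an H2-Ab1 UMI was averaged over mice. In structural cells it was 18.3% ± 9.9 in B6→B6 and 53.4% ± 15.4 in HLA→B6, and without thinning 27.7% and 64.8% (two-sided exact permutation p = 0.0179, and 0.143 adjusted over 16 types and clusters at 500 UMIs). In cluster 1 it was 22.0% and 53.8% (exact p = 0.0179), in cluster 5 17.7% and 56.7% (exact p = 0.0286, the smallest for 4 against 3 mice) and in alveolar macrophages 25.4% and 65.8% (exact p = 0.0714). In B cells the share was 89.1% and 90.3%. T cells stood at 0.42% and 0.66% and NK cells at 0.31% and 2.03%, and were read as background. Median depths before thinning were 1209 and 1033 UMIs in structural cells and 1492 and 1731 UMIs in T cells.

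Cells also shifted in how much of their RNA was class II. Among HLA→B6 structural cells of at least 500 UMIs, those with at least 1% of UMIs from the chain genes and Cd74 were 73.9%, 74.6% and 33.6% of cells, against 6.04%, 17.2%, 34.6%, 8.45% and 1.12% in B6→B6. HLA→B6 3 was thus at the level of B6→B6 3. In alveolar macrophages the same shares were 60.4%, 91.8% and 43.8% against 25.4%, 53.3%, 19.3%, 4.13% and 2.00%, and the groups overlapped through B6→B6 2.

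The class II transcripts of a graft were also divided among its types, as a share of all UMIs of the 10 members in that mouse. B cells held 40.7% ± 21.3 of them in B6→B6 and 30.4% ± 29.6 in HLA→B6, myeloid cells 32.5% ± 11.8 and 11.9% ± 7.07, alveolar macrophages 11.1% ± 5.80 and 36.8% ± 27.0 and structural cells 5.20% ± 4.68 and 11.5% ± 7.05. Alveolar macrophages held between 16.2% and 67.4% in HLA→B6 and between 1.48% and 15.9% in B6→B6, with no overlap (two-sided exact permutation p = 0.0179, and 0.196 adjusted over 11 types). Myeloid cells overlapped (exact p = 0.0536). These shares move with the number of cells captured of each type. Equal cell numbers of each type were then assumed, through the mean UMIs per cell of a type. Alveolar macrophages held 4.49% and 28.7% and structural cells 1.12% and 3.31% (exact p = 0.0179 in both, 0.0655 adjusted). Myeloid cells held 52.9% and 27.9% (exact p = 0.0357, and 0.0786 adjusted). NK cells, the background, held 0.0128% and 0.0902%, with the same exact p (0.0179) and adjusted p (0.0655) as structural cells. Small types count in full here: 5 Type 2 pneumocytes held 22.1% in B6→B6 4, and absent types were set to 0. Shares of a graft sum to the same total, so a higher share of one type lowers the others, and the myeloid mean of class II UMIs per cell, 283 and 173, gave an exact p of 0.214.

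**Figure D5:**
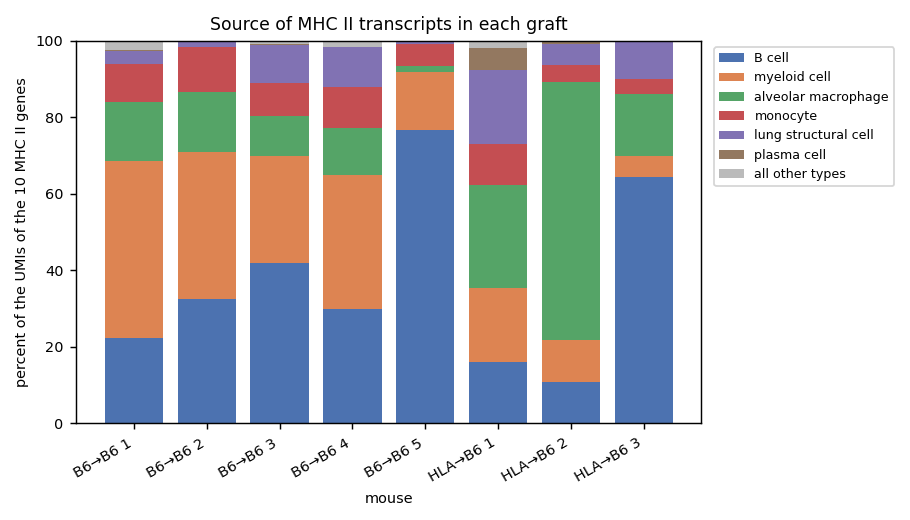
Share of all UMIs of the 10 genes held by each cell type in each mouse, in percent, for B6→B6 1 to 5 and HLA→B6 1 to 3. Alveolar macrophages hold between 16.2% and 67.4% in HLA→B6 and between 1.48% and 15.9% in B6→B6.

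Other genes of the pathway were read from 51 listed genes in 5 lists: regulators of class II promoters, endosomal processing, turnover and trafficking, costimulation and other genes of the class II region. Single genes of these lists that are named for alveolar macrophages and B cells, and those that did not pass in structural cells, were picked after their values were seen. In alveolar macrophages 15 of 35 tested were higher and 0 lower, where 12.3% of all genes were called in either direction, with a median log2 change of 0.89. Of the endosomal processing genes 8 of 9 rose. They included the proteases Ctss, which trims CD74, by 1.81 ± 0.30, Ctsb by 1.84 ± 0.30, Ctsl by 1.10 ± 0.20 and Lgmn by 1.50 ± 0.30. Of the regulators 3 of 9 rose, among them the interferon regulatory factors Irf1 by 1.37 ± 0.38 and Irf8 by 1.23 ± 0.24. Cd86, a costimulatory ligand, rose by 1.97 ± 0.41 and Tap1, the peptide transporter of the class I pathway encoded in the class II region, by 2.01 ± 0.50. Rfxap, a subunit of the X box complex, gave 0.15 ± 0.34 and did not pass.

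In structural cells 0 of 34 were called, where 0.604% of all genes were. Tap1 gave 1.56 ± 0.34 (edgeR, adjusted p = 0.0703), Ctss 2.63 ± 0.59 (adjusted p = 0.0851) and Irf1 0.15 ± 0.15. In cluster 0, 1 of 22 rose (0.686% of all genes called), Tap1 by 1.44 ± 0.33 (edgeR, adjusted p = 0.0414). In cluster 1, 2 of 21 rose (1.02% of all genes called), Tap1 by 1.92 ± 0.44 and Ctss by 4.78 ± 0.73 (edgeR, adjusted p = 0.0404 and 0.00230), in the cluster where macrophage markers were also higher. In B cells 0 of 39 passed, where 0.117% of all genes did, with Tap1 at 0.61 ± 0.19 (edgeR, adjusted p = 0.720).

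Genes with the pattern most like class II were ranked by Pearson correlation of their log2 levels with the log2 of the summed level of H2-Ab1, H2-Aa, H2-Eb1 and Cd74 over 69 sums of 11 types, among 8089 genes of at least 10 CPM on average. These sums share libraries, and the values are a description. Outside the listed members the highest were Lgmn, an endosomal protease (r = 0.837), Ly86 (0.811), Plekho1 (0.810), Ctsh, another endosomal protease (0.802), Pkig (0.795) and Cd81, a tetraspanin (0.775). Of the members outside that sum, H2-DMb1 (0.887), H2-DMa (0.851) and Ciita (0.846) tracked it most closely. H2-DMb2 (0.695), H2-Ob (0.527) and H2-Oa (0.397) followed it least.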

How the data were processed

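Left lung grafts of 5 B6→B6 and 3 HLA→B6 mice were profiled by 3′ single-cell RNA-seq in droplets (10x Genomics), with 10000 cells loaded. The authors made the deposited counts, whole UMIs per gene and cell with no normalization, with Cell Ranger on mm10 (Cell Ranger and Seurat are named in the submitters' processing notes), removed barcodes below 200 UMIs and genes seen in under 3 cells, and used SoupX against free RNA. SoupX was given H2-Ab1, H2-Aa, H2-Eb1 and Cd74 among its markers of free RNA, but not the other members. The sources used here do not say whether the deposited counts precede or follow SoupX, and removal of these genes' reads from T and NK cells would lower the background shown. Cell types and clusters were the authors' labels, kept as deposited. Of the columns of values 0 were left unused, and all 20778 cells were kept. Scrublet marked 294 cells (1.41%) as doublets. Mice carry the numbers of the deposited table of cells. The cell names number the HLA→B6 mice differently.

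Counts were summed per mouse and type or cluster (at least 10 cells), scaled with TMM and kept where filterByExpr passed a gene (minimum count 10). The test was the quasi-likelihood F test of edgeR, with Benjamini-Hochberg adjustment over all genes tested in that type and a threshold of 0.05. SE is the log2 change divided by the root of F. Shares were compared by two-sided exact permutation over mice. Each mouse is 1 replicate and precision is limited by 5 against 3. Shares at 500 UMIs are expected values of random draws. Intervals are 95% and cover counting error only. On simulated counts with 4-fold changes, 93.4% of changed genes were recovered for structural cells, 100% for alveolar macrophages, 92.9% for cluster 0 and 57% for the interaction with B cells. The simulation set the same spread between mice for all genes, not one taken from these data. These percentages therefore do not give the power of the fits here. In alveolar macrophages H2-Ab1 changed 3.98-fold and was not called.

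The members, pathway lists, markers and tests were chosen with earlier results of these data known. The text names the 10 members, the pathway genes past the threshold in structural cells and their clusters, and the 6 genes most correlated with class II. Other genes are named as picked after their values were seen. Symbols were matched to GENCODE on GRCm38 for 17711 names (98.8%). Promoters came from RefSeq (GRCm38.p6). Alternatives tried were DESeq2, other normalizations and filters, blocks for linked libraries and replicate numbers, cell filters, cell numbers and each mouse left out. Alternatives with the unlinked libraries alone were added after seeing the data. Work was done in Python 3.11.15 and R 4.3.3 (edgeR 4.0.16, DESeq2 1.42.0).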

Additional observations from a re-analysis of the deposited data

Results flagged for a closer look

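In 58 groups of 4 or 5 mice the highest or lowest level of a member was checked against the others of its group, and 2 stood apart, where chance gives about 1 in 20. H2-DMb2 in myeloid cells was at 75.9 CPM in B6→B6 4, with the other controls between 462 and 561 CPM. H2-Ab1 in structural cluster 1 was at 97.3 CPM in B6→B6 5, with the other controls between 757 and 877 CPM.

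In 4 cases the change of a member differed between types by a test of that difference (edgeR). H2-DMa changed by 2.06 more in structural cells than in B cells and by 2.23 more than in monocytes (log2). H2-Ab1 changed by 2.82 more and Cd74 by 2.88 more in structural cells than in monocytes.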

How the results depend on the processing

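Values are numbers of members called (edgeR, adjusted p under 0.05) unless said otherwise. In alveolar macrophages the count of 2 became 1 without TMM, 6 without a filter on low counts, 7 with the linked libraries as a block, 0 with the replicate block, 7 in the unlinked libraries alone and 6 without the 793 cells left out for a shared barcode. In structural cells 5 became 0 without TMM, with the replicate block, in the unlinked libraries alone and with the same number of cells per mouse, and 3 without cells holding a leukocyte UMI. In cluster 0, 1 became 6 without a filter, 4 with the replicate block and 0 in the unlinked libraries. In cluster 1, 5 became 0 with at least 20 cells, 0 in the unlinked libraries and 3 without leukocyte UMIs. In cluster 2, 1 became 6 without a filter, 4 with at least 20 cells and 0 in the unlinked libraries. Leukocytes went from 0 to 4 without a filter, NK cells to 4 higher (no member is tested there with it) and myeloid cells from 0 to 4 lower with the replicate block. Without the mouse as a block, the interaction counts became 0 for B cells and 1 for monocytes, and in the unlinked libraries 0 for B cells, 4 for alveolar macrophages, 5 for monocytes and 1 for myeloid and for NK cells. The cause of these shifts was not tested. The difference in the share of cells with H2-Ab1 passed p under 0.05 in alveolar macrophages at 1000 UMIs (54.0 points) and no longer in cluster 0 without thinning or at 1000 UMIs (33.5 and 31.9), in cluster 1 (30.8) and in cluster 5 (48.8) at 1000 UMIs. In the unlinked libraries, where 2 against 2 mice cannot pass, it was 35.6 points in structural cells and 43.3 and 32.7 in clusters 0 and 1. In cluster 5 it was 38.6 with B6→B6 4 as the lone control, as B6→B6 5 had 5 cells of that depth. The difference in the alveolar macrophage share of class II UMIs was 14.6 in the unlinked libraries. With equal cell numbers the difference in the share of class II UMIs was 2.18 points in structural cells, −25.0 in myeloid cells and 2.27 in B cells, where it reversed.

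The replicate block did not rest on a pairing: deviations of same-numbered mice correlated at 0.07, 0.05 and −0.14 in structural cells and at −0.03, 0.28 and −0.18 in alveolar macrophages. The linked mice numbered 2 also gave 0.19 in B cells and 0.16 in T cells, and mice B6→B6 4 and 5 carry no weight in it. Leaving out each mouse gave 1 to 6 in structural cells (1 without B6→B6 2 or 4 or HLA→B6 1 or 2), 0 to 3 in alveolar macrophages, 0 to 3 in leukocytes (3 without B6→B6 4), 0 to 1 in myeloid cells and 0 to 4 in B cell cluster 1. For structural clusters 0, 1, 2 and 5 the ranges were 0 to 2 (0 without B6→B6 1, HLA→B6 1 or 2), 3 to 7, 1 to 3 and 4 to 6. Interaction counts were 0 to 4 for B cells, 1 to 6 for monocytes and 0 to 6 for myeloid cells. Differences in shares of cells with H2-Ab1 were 29.1 to 43.8 points in structural cells, 29.6 to 48.7 in alveolar macrophages and 29.6 to 41.5, 26.0 to 37.1 and 35.7 to 43.3 in structural clusters 0, 1 and 5. Those in shares of class II UMIs were 2.37 to 9.26 (structural), 10.4 to 36.0 (alveolar macrophages), −24.9 to −17.1 (myeloid), −27.3 to −0.42 (B cells) and −5.12 to −1.67 (monocytes). The chain genes, Cd74, H2-DMa and H2-DMb1 were followed in structural cells, alveolar macrophages and clusters 0, 1 and 5. Ciita was followed in structural cells, alveolar macrophages and cluster 0. Of these values 507 kept their direction and side of the threshold, 42 passed it newly, 95 lost it and 0 reversed. Values averaged over clusters 0, 1 and 2 are among the 507 and were compared by direction alone. H2-Ob in structural cells, 0.17 and not called, was −0.35 by DESeq2 and −1.05 in the unlinked libraries.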
